A study of Mus musculus with 6 samples.

Results

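The genes described here are 41 factors that make ribosomes, from the RNA polymerase I machinery to the proteins that process and assemble ribosomal RNA. They were chosen by gene symbol, as every probe set of the deposited arrays whose platform annotation names a member. All 41 of 41 were found among 18194 genes on the arrays, on 85 probe sets. Total liver RNA was measured on Affymetrix arrays of the 430A and 430B designs, with 1 array per genotype and design and 6 arrays in all. LT livers came from ApoErtTA:TRE2-TAg transgenic mice in which doxycycline induced the simian virus 40 (SV40) large T antigen (LT) together with small t antigen. 17kT livers came from mice whose sample titles carry the same transgene name, ApoErtTA:TRE2-TAg, and which made the shorter SV40 17kT product together with small t. WT livers came from wild-type mice without a transgene. All mice, WT included, drank water with 25 µg/ml doxycycline and 2.5% sucrose for 4 days, and all were males, 32 to 37 days of age, on a hybrid B6SJL background.

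These groups have limits as models. Small t was made in both transgenic groups and the ApoErtTA driver was absent from WT, so the contribution of either cannot be told apart from that of LT or 17kT. The sources used here do not give how many animals went into each RNA, or whether animals were pooled. With 1 array per genotype and design there was no replicate, no SD and no test: a difference is one between arrays, and the number of arrays limits its precision.

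A ribosome starts in the nucleolus, where RNA polymerase I copies the ribosomal DNA into a long precursor. Small nucleolar ribonucleoproteins (snoRNPs) modify that precursor, the box C/D kind by methylation and the box H/ACA kind by pseudouridylation, while assembly factors fold and cut it into the small and large subunits. Growing and dividing cells, regenerating liver among them, make ribosomes at a high rate, and the transcription factor MYC is known to raise many of these genes through the E-box letters CACGTG.

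The promoter sequences are shown first because Rrn3 and Nop2, both past 2-fold in LT livers, carry that E-box upstream of the start site. Utp18 carries it too without passing 2-fold. Nop56, past 2-fold in both transgenic livers, has none in its window. The same holds for most of the members past 2-fold in LT livers that have a window. Capitals mark CACGTG, and each sequence reads 5′ to 3′ on the gene's own strand and ends at the base before the annotated start site (RefSeq, GRCm38.p6). Rrn3 is chr16:13780449-13780698 on the plus strand, Nop2 is chr6:125131783-125131882 on the plus strand, Utp18 is chr11:93885767-93885866 on the minus strand, and Nop56 is chr2:130274312-130274411 on the plus strand.
Rrn3: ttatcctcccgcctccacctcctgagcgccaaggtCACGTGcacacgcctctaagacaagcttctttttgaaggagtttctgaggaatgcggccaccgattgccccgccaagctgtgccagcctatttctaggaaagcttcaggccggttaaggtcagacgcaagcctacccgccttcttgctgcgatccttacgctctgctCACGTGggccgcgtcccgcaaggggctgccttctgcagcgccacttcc
Nop2: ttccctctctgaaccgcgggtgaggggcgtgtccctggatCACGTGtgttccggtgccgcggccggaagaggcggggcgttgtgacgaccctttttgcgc
Utp18: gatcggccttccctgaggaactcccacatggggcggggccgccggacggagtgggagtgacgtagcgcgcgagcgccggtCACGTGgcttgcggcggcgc
Nop56: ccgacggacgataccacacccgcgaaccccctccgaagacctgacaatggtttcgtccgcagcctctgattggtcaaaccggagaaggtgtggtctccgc

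Windows of 250 bases before to 50 bases after the start site were listed for 36 of the 41 members. The palindrome CACGTG, which reads the same on both strands, was present in the windows of 7 of the 36 members. It lay 215 and 48 bases before the start of Rrn3, 60 bases before that of Nop2 and 20 bases before that of Utp18. In Pes1, Wdr43, Ltv1 and Mybbp1a it lay after the start, beginning at bases 3, 18, 29 and 41. Of these members, Rrn3, Nop2 and Wdr43 passed 2-fold in LT livers, and Utp18, Pes1, Ltv1 and Mybbp1a did not. A link between the letters and the ratios was not tested. The 7 members are 19.4% of the 36, against 10.2% of the 14453 genes on the arrays with a window and 7.15% of all 32851 windows. TTTCCCGC or TTTGGCGC, letters bound by E2F factors, searched on both strands and sharing no overlap with CACGTG, were found for 3 of the 36 members. These were Ncl, Nolc1 and Nop58, with the match starting 224, 117 and 108 bases before the start, and the share was 8.33% of members against 2.77% of genes on the arrays and 1.56% of all windows. A match is a description of letters, and binding was not measured.

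Signals are MAS5 intensities on a linear scale, scaled to a common 2% trimmed mean within each design. Values below the median signal of a design (90.4 on 430A and 140.5 on 430B), here called the floor, were set to it. A gene is represented by its brightest probe set relative to the floor, counts as measured if either of the 2 arrays compared reads above the floor, and is called higher or lower at 2-fold, a log2 ratio of 1. For 36 members the chosen probe set was on 430A, and for 5 (Rrn3, Dkc1, Nat10, Nob1 and Noc2l) it was on 430B. Signals of different probe sets are not on a common scale, so levels are compared only between genotypes.

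In LT livers, 13 of 38 measured members passed 2-fold higher than in WT livers and 0 were lower. Across all 12776 genes measured in that comparison, 11.1% were higher and 9.01% lower. The median log2 ratio was 0.64 for the members and 0.02 for all measured genes, and 35 of the 38 members, 92.1%, had a positive ratio against 51.1% of all genes. In 17kT livers 4 of 38 measured members, 10.5%, passed 2-fold higher than in WT livers and 0 lower, beside 9.97% higher and 8.64% lower among 12993 genes, so the count stood near the background. The median of the members was 0.55, against 0.07 for all measured genes, with 33 of 38 ratios positive. Both comparisons use the same WT arrays, so a high or low WT signal moves both.

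The 3 members outside these counts, Polr1e, Rrp9 and Rrp12, were at the floor of their chosen probe set on every array. Tcof1 and Wdr75 were measured against WT only through the transgenic arrays, so for them the filter and the direction are linked. Among the 36 members above the floor on both arrays, 12 passed 2-fold higher in LT livers, against 10.8% of the 10166 genes above it on both, and 3 did in 17kT livers, against 8.80% of 10503. That requirement was added after the data were seen.

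**Figure D1:**
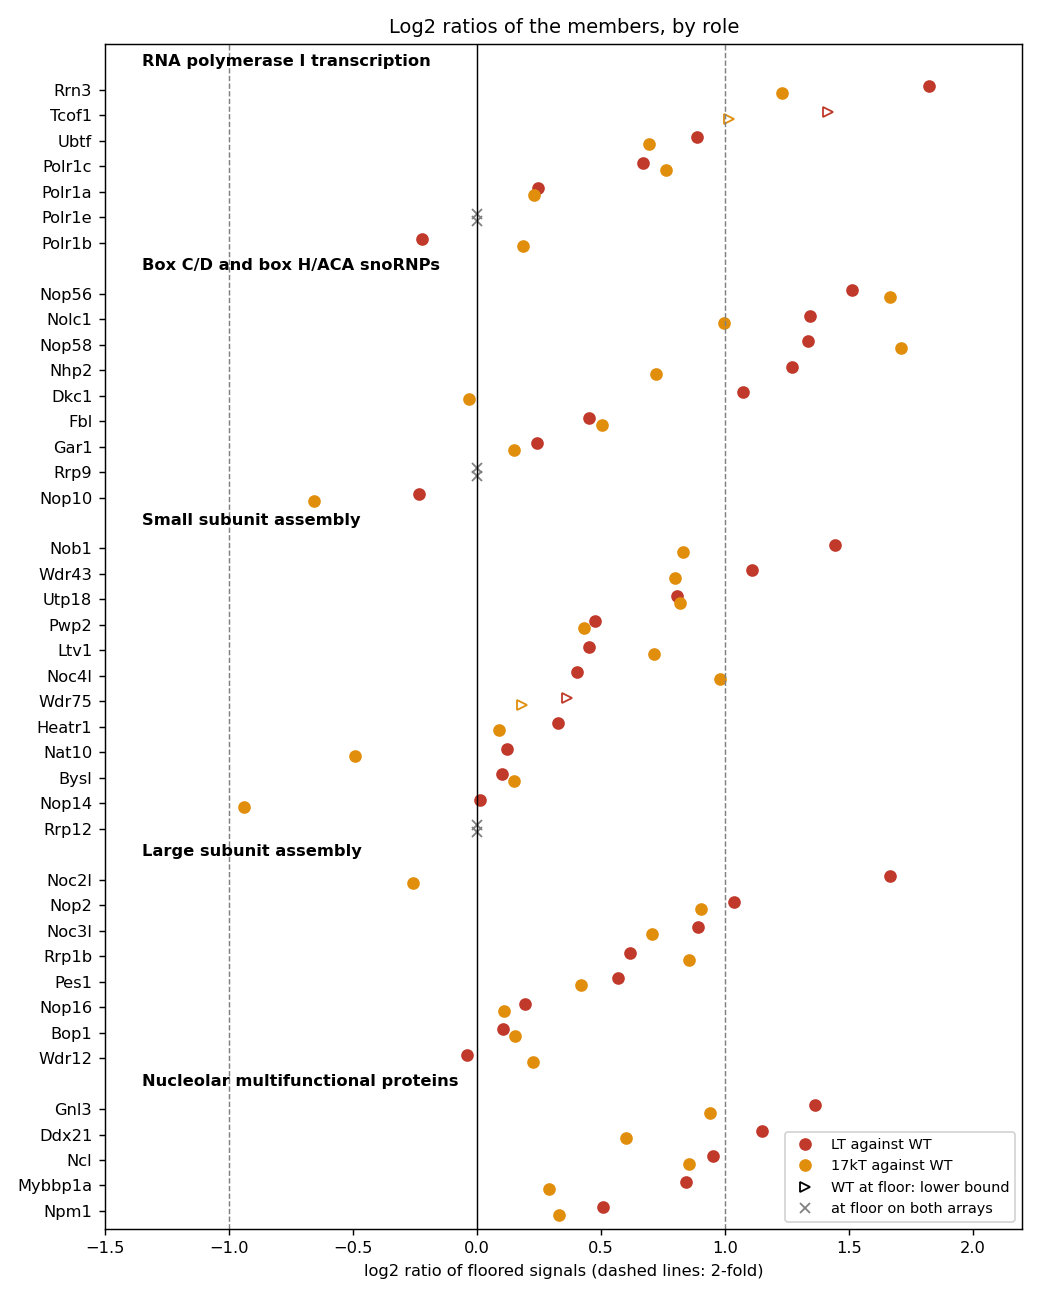
Log2 ratios of floored signals for all 41 members, grouped by role, with LT against WT in red and 17kT against WT in orange, 1 array per genotype. Dashed lines mark 2-fold, open triangles are lower bounds where WT was at the floor, and crosses are members at the floor on both arrays; 13 red and 4 orange symbols lie past the right dashed line and none past the left.

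Among the 7 RNA polymerase I genes, the largest ratio belonged to Rrn3, the initiation factor that brings the polymerase to the ribosomal DNA promoter. Its signal was 1079.7 in LT, 716 in 17kT and 305 in WT livers, log2 ratios of 1.82 and 1.23 against WT. LT was the highest array and WT the lowest. The same Rrn3 probe set is also on 430A, where it read 214 in LT, 208 in 17kT and 85.6, below the floor, in WT livers. Both transgenic arrays there were at least 2-fold above the floor that stood for WT, with ratios of at least 1.24 and 1.20. Tcof1, or treacle, is a nucleolar partner of RNA polymerase I. It read 241 in LT and 183 in 17kT livers against 80.8 in WT livers, at least 2.67-fold and at least 2.02-fold higher because WT lay below the floor. The other Tcof1 probe sets, 2 on the same arrays, were below the floor in all 3 genotypes.

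Ubtf, the factor that binds along the ribosomal DNA, did not pass 2-fold, with 970.2 in LT, 848 in 17kT and 524 in WT livers (0.89 and 0.69). None of the polymerase subunits passed 2-fold on its chosen probe set. Polr1c, shared with RNA polymerase III, had 0.67 in LT and 0.76 in 17kT livers, and 0.99 and 0.15 on its second probe set. Polr1a, the largest subunit, had 0.25 and 0.23, and Polr1b, the second subunit, had -0.22 in LT and 0.19 in 17kT livers. Polr1e, an associated subunit, read 83.0 in LT, 71.4 in 17kT and 25.7 in WT livers on its chosen probe set, all below the floor. A second Polr1e probe set, set aside because it may cross-hybridise, was above the floor on all 3 arrays with ratios of 0.48 and 0.28. As a group, 2 of 6 measured RNA polymerase I members passed 2-fold higher in each comparison with WT, with medians of 0.78 in LT and 0.73 in 17kT livers. Role counts of so few genes stand beside the 11.1% of all measured genes that were higher in LT and the 9.97% that were higher in 17kT livers, here and for the roles that follow.

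The snoRNP proteins had the highest median of the 5 roles in LT livers. There 5 of 8 measured members, 62.5%, passed 2-fold, with a median log2 ratio of 1.17, and 2 of 8, 25.0%, did in 17kT livers, with a median of 0.61. Nop56 and Nop58 form the paired scaffold of box C/D particles. Nop56 read 546 in LT, 608 in 17kT and 192 in WT livers, ratios of 1.51 and 1.67. Nop58 read 267 in LT, 347 in 17kT and 106 in WT livers, ratios of 1.34 and 1.71. On the chosen probe sets of both scaffold genes WT was the lowest array and 17kT the highest. A second Nop56 probe set gave 1.47 in LT but 0.84 in 17kT livers, so its 17kT value was under 2-fold. On that probe set LT was the highest array, with 558 in LT, 362 in 17kT and 202 in WT livers. Fbl, fibrillarin, the methyltransferase of the same particles, did not pass on its chosen probe set, at 0.45 and 0.50. Its second probe set gave 0.69 in LT and 1.30 in 17kT livers, past 2-fold in 17kT, with 316 in LT, 481 in 17kT and 196 in WT livers.

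The box H/ACA proteins differed among themselves. Nhp2, a core protein, read 907 in LT, 621 in 17kT and 376 in WT livers, ratios of 1.27 and 0.72, and its second probe set gave 1.04 and 0.83. Dkc1, dyskerin, is the pseudouridine synthase of the particle. It read 2596 in LT, 1208 in 17kT and 1235 in WT livers. LT alone was high for Dkc1, with a ratio of 1.07 in LT against -0.03 in 17kT livers. Its other probe sets on 430B gave 0.17, under 2-fold, and at least 1.37 with WT at the floor. Gar1, also a core protein, had 0.24 and 0.15. Nop10, the smallest core protein, had ratios below 0 in both, -0.23 and -0.66, and its second probe set gave -0.30 and -0.43.

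Nolc1, a chaperone of both snoRNP kinds also called Nopp140, read 472 in LT, 371 in 17kT and 186 in WT livers. Its ratio was 1.34 in LT livers and 0.998 in 17kT livers, the member value closest below the limit. A second Nolc1 probe set gave 0.65 and 0.53, and on the remaining one the LT and WT arrays were at the floor. Rrp9, a protein of the U3 box C/D particle, read 67.3 in LT, 25.95 in 17kT and 24.4 in WT livers, below the floor throughout.

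**Figure D2:**
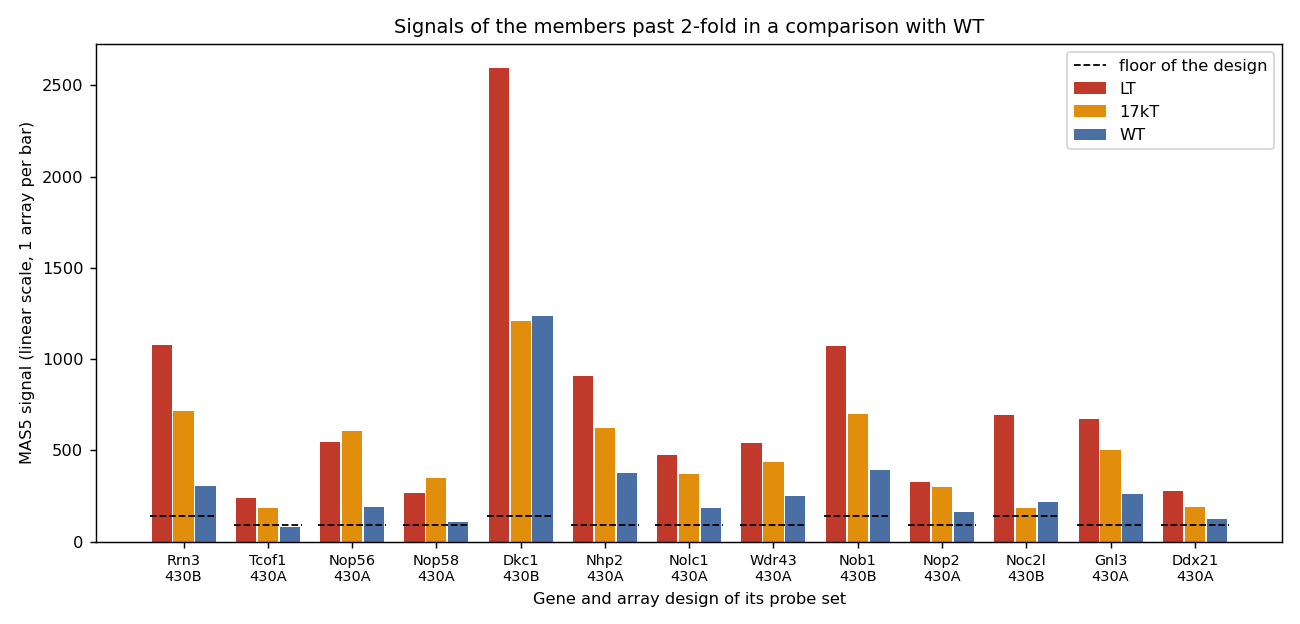
MAS5 signals on a linear axis starting at 0 for the 13 members past 2-fold in a comparison with WT, with 1 bar per array in the order LT, 17kT and WT and a dashed line at the floor of the design. Bars compare genotypes within a gene and not genes with each other; LT is above WT for all 13, and 17kT is below WT for Dkc1 and Noc2l.

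Small subunit assembly factors had lower ratios in LT livers. Of 11 measured members, 2 passed 2-fold in LT and 0 in 17kT livers, with medians of 0.40 and 0.43. Nob1, the endonuclease that makes the final cut of small subunit ribosomal RNA, read 1072 in LT, 702 in 17kT and 394 in WT livers, ratios of 1.44 and 0.83. Wdr43, a subunit of an early processing complex, read 539 in LT, 435 in 17kT and 250.1 in WT livers, ratios of 1.11 and 0.80. On the chosen probe sets of both genes LT was the highest and WT the lowest array. The second Wdr43 probe set had WT at the floor and gave at least 1.20 in LT and at least 1.38 in 17kT livers, so 17kT was the highest array on it.

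The other 9 measured factors of this role lay between 0.01 and 0.81 in LT livers, and between -0.94 and 0.98 in 17kT livers. Utp18, another processome subunit, was the highest of them in LT livers, with 223 in LT, 225 in 17kT and 128 in WT livers (0.81 and 0.82). Nop14, a processome factor, was the lowest in 17kT livers, with 235 in LT, 122 in 17kT and 233 in WT livers (0.01 and -0.94), so only its 17kT array was low. Under 3 of the 5 other scalings of the arrays the 17kT value of Nop14 passed 2-fold lower. The cytidine acetyltransferase Nat10 also differed in sign on its chosen probe set, with 0.12 in LT and -0.49 in 17kT livers. Its second probe set was below 0 in both, with -0.61 or lower, LT being at the floor, and -0.36. Noc4l, the small subunit member of the nucleolar complex proteins, had 0.40 and 0.98, but its 4 probe sets disagreed. Of the others, a 430A probe set gave 1.33 in LT and -0.18, with 17kT at the floor, in 17kT livers, a 430B probe set gave 1.002 and 0.02, and the remaining one gave 0.48 and 0.72, so 2 of the 4 passed 2-fold in LT livers. The remaining members were Ltv1 (0.45 and 0.71), Pwp2 (0.47 and 0.43), Heatr1 (0.33 and 0.09), Bysl (0.10 and 0.15) and Wdr75 (at least 0.36 and at least 0.18). Rrp12, an export factor, read 41.4 in LT, 41.02 in 17kT and 4.0 in WT livers, all below the floor.

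Large subunit assembly had 2 of 8 measured members past 2-fold in LT livers and 0 of 8 in 17kT livers, with medians of 0.59 and 0.32. Noc2l, a nucleolar complex protein that is also an inhibitor of histone acetylation, read 696 in LT, 183 in 17kT and 219 in WT livers. LT alone was high, with a ratio of 1.66 against -0.26 in 17kT livers. The 430A probe set of Noc2l, with WT at the floor, gave at least 1.36 in LT and at least 0.79 in 17kT livers, so the sign of the 17kT value depended on the probe set. Nop2, a methyltransferase of large subunit ribosomal RNA, read 327 in LT, 298 in 17kT and 159 in WT livers, ratios of 1.04 and 0.90. Its 1.04 was the member value closest above the limit in LT livers.

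Noc3l and Rrp1b, both nucleolar assembly factors, stood below the limit with 0.89 and 0.62 in LT and 0.71 and 0.86 in 17kT livers. The second Noc3l probe set, on 430B, gave 0.15 in LT and -0.10 in 17kT livers. The other Rrp1b probe sets both gave 0.18 in LT livers, and 0.93 and 0.73 in 17kT livers. The complex of Pes1, Bop1 and Wdr12, which is needed to mature large subunit ribosomal RNA, had low ratios: 0.57, 0.11 and -0.04 in LT livers and 0.42, 0.15 and 0.23 in 17kT livers. Nop16 had 0.19 and 0.11.

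The nucleolar multifunctional proteins all had positive ratios. In LT livers 2 of 5 passed 2-fold, with a median of 0.95, and in 17kT livers 0 of 5 did, with a median of 0.60. Gnl3, the nucleolar GTPase nucleostemin, read 669 in LT, 499 in 17kT and 260.4 in WT livers, ratios of 1.36 and 0.94. Ddx21, an RNA helicase, read 279.6 in LT, 191 in 17kT and 126 in WT livers, ratios of 1.15 and 0.60. Its second probe set, with WT at the floor, gave at least 0.40 and at least 0.48. Ncl, nucleolin, a ribosomal RNA chaperone and one of the most abundant nucleolar proteins, just missed 2-fold on its chosen probe set. It read 2108 in LT, 1970.1 in 17kT and 1088 in WT livers, ratios of 0.95 and 0.86. Another Ncl probe set above the floor in every genotype gave 0.57 and 0.40, and the rest had arrays at the floor. Mybbp1a, a nucleolar Myb-binding protein, had 0.84 and 0.29.

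Npm1, nucleophosmin, depended on its probe set. The chosen one read 2080 in LT, 1841 in 17kT and 1462 in WT livers (0.51 and 0.33), and the other read 2052 in LT, 1260 in 17kT and 784 in WT livers (1.39 and 0.68). Both placed LT highest and WT lowest, and only the second passed 2-fold in LT livers.

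Between the transgenic livers, the members and all measured genes alike differed less. In LT against 17kT, 2 of 38 measured members, 5.26%, passed 2-fold higher and 0 lower. Among 12542 genes 4.47% were higher and 4.23% lower, so the member count stood near the background. The median of the members was 0.16, against -0.03 for all measured genes. The 2 genes were Noc2l (1.92) and Dkc1 (1.10), both read from 430B. The 100 probe sets printed on both designs read the ratio of LT to 17kT lower on 430A than on 430B by a median of 0.36, and the 430A probe set of Noc2l gave 0.57. With 430A alone, 0 of 35 measured members passed in this comparison. Nop14 (0.95) and Noc4l (-0.58) were the extremes among the rest, and for Noc4l a second probe set gave the opposite direction, at least 1.51 with 17kT at the floor.

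Probe sets of the members were also counted one by one. In LT against WT, 22 of 66 measured probe sets were higher and 0 lower, beside 10.6% higher and 8.21% lower among 20674 probe sets. In 17kT against WT the counts were 7 and 0 of 68, beside 9.48% and 7.7% of 21203. In LT against 17kT they were 4 and 0 of 68, beside 4.24% and 4% of 20451. Of 20 members with a second measured probe set, all of a gene's probe sets shared the sign in 17 for LT against WT, in 14 for 17kT against WT and in 10 for LT against 17kT. The signs were mixed for Polr1a, Heatr1 and Nat10 in LT against WT, and for Polr1a, Heatr1, Dkc1, Noc2l, Noc3l and Noc4l in 17kT against WT. For scale, the 100 probe sets on both designs gave an SD of 0.23 for a single reading of the LT to WT ratio. Probe sets of the same gene gave an SD of 0.54 for a single reading. Both SDs were derived from differences between paired readings, and those differences spread more widely. Small ratios therefore lie within the spread of the measurement itself. Median design offsets (430A minus 430B) were -0.25 for LT against WT and 0.19 for 17kT against WT.

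**Figure D3:**
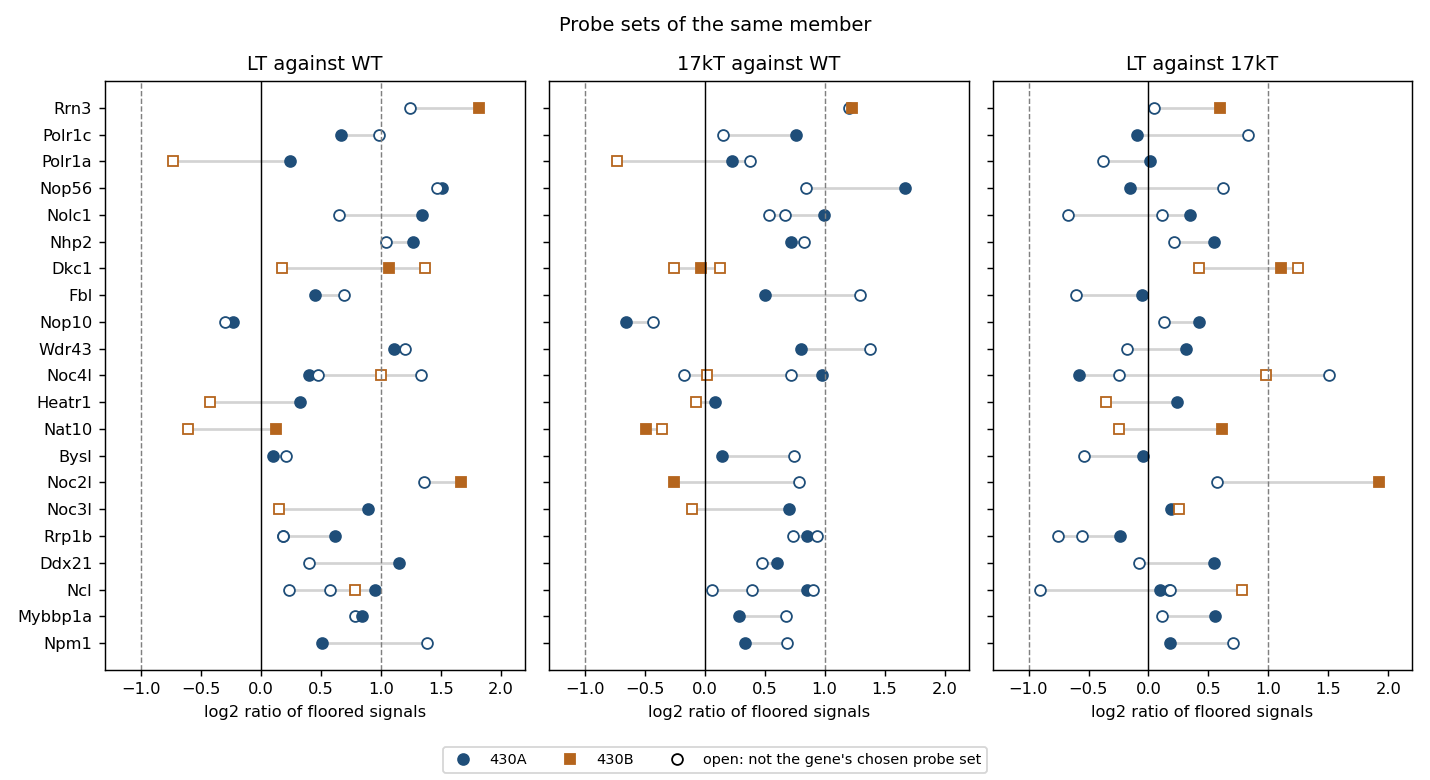
Log2 ratios of every measured probe set of the members that had more than 1 measured against WT in LT livers, 1 row per gene, with circles for 430A, squares for 430B and filled symbols for the chosen probe set. Grey lines span the probe sets of a gene; most LT against WT rows stay right of 0, and the rows of Noc4l and Noc2l are wide in LT against 17kT.

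The other ribosome biogenesis genes were described from lists of the same pathway, chosen with earlier results of these data known. The genes named are, by a fixed naming rule, the extremes of each list that read above the floor on both arrays with no probe set opposing by 2-fold. Those read from 430B were Znhit6, Cd3eap, Polr1d, Tsr1, Bms1, Nol10, Urb1, Rpf1, Wdr18, Ddx24, Exosc8, Bdp1 and Gtf3c4. The median design offsets given above bear on their values, and the design and the gene go together for them. Of 125 measured genes, 31 were higher and 1 lower in LT than in WT livers, 24.8% higher beside the 11.1% of all genes, with a median of 0.57. In 17kT livers 12 of 124 were higher and 0 lower, 9.68% beside 9.97%, with a median of 0.44. Between LT and 17kT livers, 5 of 128 were higher and 1 lower, with a median of 0.15. These are 3.91% and 0.78%, beside 4.47% and 4.23% of all genes. The counts of the separate pathway lists that follow stand beside 11.1% of all genes higher and 9.01% lower in LT livers. For 17kT livers the shares of all genes are 9.97% and 8.64%.

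Within the wider set, the snoRNP assembly partners had the highest median in LT livers, 1.13, with 5 of 8 measured genes past 2-fold, against 3 of 9 and 0.61 in 17kT livers. Ruvbl2, an AAA+ ATPase of the snoRNP assembly chaperone, read 917 in LT, 768 in 17kT and 258 in WT livers (1.83 and 1.58), and its partner Ruvbl1 had 1.10 and 0.61. Pih1d1, another subunit of that chaperone, read 522 in LT, 639 in 17kT and 178 in WT livers, with 1.84 in 17kT. The naming rule left it out for LT livers, because another Pih1d1 probe set went the opposite way there by at least 2-fold. Znhit6, a box C/D assembly factor, had 1.15 in LT and 0.01 in 17kT livers, so LT alone was high, as for Dkc1.

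Of the other RNA polymerase I subunits and factors, 5 of 13 measured were higher in LT and 3 of 13 in 17kT livers, with 0 lower in either. Cd3eap, a polymerase I subunit now named Polr1g, read 405 in LT, 353 in 17kT and 162 in WT livers (1.33 and 1.13). Polr2e, shared by all 3 polymerases, had 1.38 in both. Polr1d, also shared with RNA polymerase III, had 0.23 and -0.07, and the silencing factor Baz2a had 0.17 and 0.18.

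The small subunit list had 9 of 44 higher and 1 lower in LT livers and 0 of 43 past 2-fold in 17kT livers. Tsr1 (1.55) and the GTPase Bms1 (1.40), both pre-small-subunit factors, were highest in LT livers by the naming rule. Rcl1, which works with Bms1, was the gene that fell, with 515 in LT, 850.4 in 17kT and 1433 in WT livers (-1.48 and -0.75). Nol10 was next lowest in LT livers (-0.47), Nol6 was low in 17kT livers (-0.72), and Nop9 and Utp11 were the highest there by that rule (0.96 and 0.91).

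In the large subunit list 8 of 47, 17.0%, were higher in LT and 3 of 46, 6.52%, in 17kT livers. It had 0 lower in either. Rrs1 and Urb1 had the highest LT ratios by the naming rule (1.36 and 1.33), and Rsl1d1 and Rpf2 the lowest (-0.46 and -0.38). In 17kT livers Eif6, which holds the subunits apart until the large one is mature, had 1.18 and Rpf1 had 1.14, against -0.64 for Wdr18 and -0.55 for Ddx24. For the exosome, the nuclease complex that trims ribosomal RNA, 4 of 13 were higher in LT and 3 of 13 in 17kT livers. Exosc8 (1.86) and the nuclease Dis3 (1.58) led by the naming rule in LT livers and Dis3 (1.34) and Exosc1 (1.32) in 17kT livers, while Exosc5 (-0.74 and -0.49) and Exosc9 (-0.47 and -0.26) had ratios below 0 in both.

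**Figure D4:**
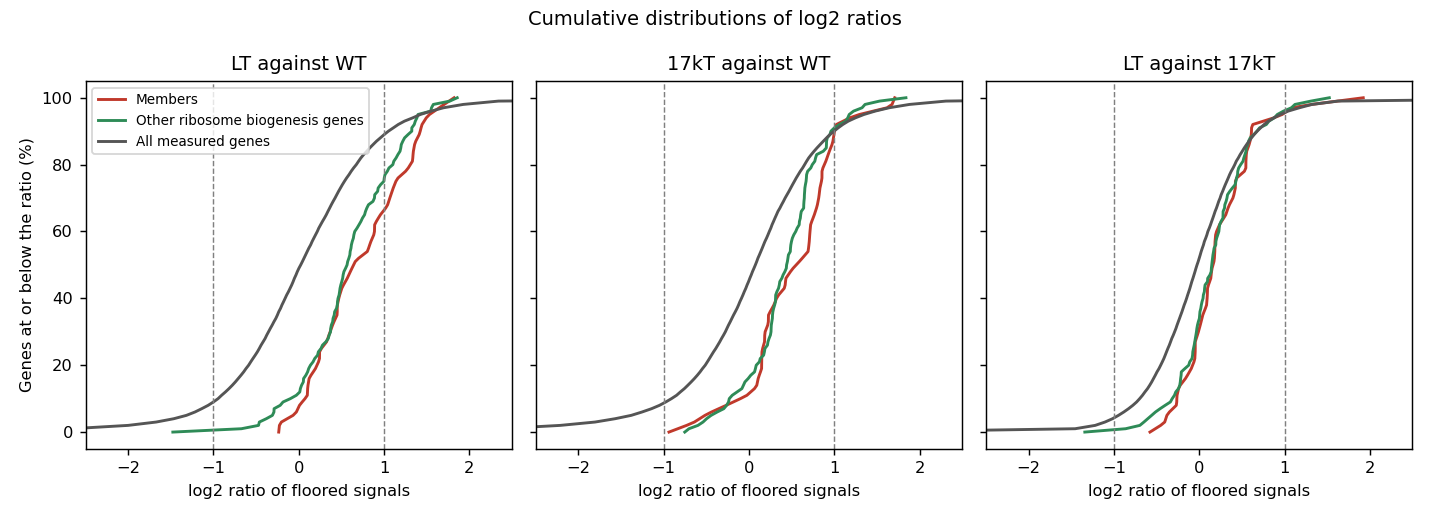
Cumulative share of genes, in percent, against the log2 ratio of floored signals in each comparison, for the members (red), the other ribosome biogenesis genes (green) and all measured genes (grey), with dashed lines at 2-fold. Against WT the red and green curves lie right of the grey one, with member medians of 0.64 and 0.55, and in LT against 17kT the curves are closer, with a member median of 0.16.

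Lists outside the nucleolus gave a scale. The RNA polymerase III list, which makes transfer RNA and the smallest ribosomal RNA, had 3 of 19 measured genes higher in LT livers (median 0.29) and 3 of 20 higher with 1 lower in 17kT livers (median 0.27). Its highest by the naming rule were Bdp1 (1.14) and Polr3d (1.05) in LT livers and Polr3d (1.24) and Polr3c (1.14) in 17kT livers. Gtf3c4 (-0.59) and Gtf3c1 (-0.37) were lowest in LT livers, and by the naming rule Gtf3c6 (-0.44) was lowest in 17kT livers. The gene called lower there was Gtf3c4, named after its values were seen: it read 36.1 in 17kT livers, below the floor, against 365 in WT livers, a ratio of -1.38 or lower. Subunits of RNA polymerase II had 2 of 8 higher in each comparison, namely Polr2a, the largest subunit (1.95 and 2.09), and Polr2c (1.32 and 1.25), with medians of 0.52 and 0.55. Polr2g (0.31 and 0.11) and Polr2i (-0.05 and -0.17) were lowest. The cytosolic ribosomal proteins themselves had 4 of 39 past 2-fold higher in LT livers, 10.3% beside 11.1% of all genes, with a median of 0.59. In 17kT livers it was 3 of 39, 7.69% beside 9.97%, with a median of 0.25. Mitochondrial ribosomal proteins, made for a separate ribosome, had medians of 0.08 and 0.09.

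Other measures moved with genotype. All 9 measured markers of dividing cells were higher than WT in both transgenic livers, with a summed signal of 15951 in LT, 18333 in 17kT and 2142 in WT livers. Bub1 and Aurkb were at the floor in WT livers, so their ratios are lower bounds and their direction is linked to the filter. The proliferation antigen Mki67 alone read 1937 in LT, 2454 in 17kT and 199 in WT livers. In bulk liver, fewer cells of a type and less RNA per cell cannot be told apart, and the part of dividing cells in the ribosome gene ratios was not tested. All 9 hepatocyte markers were above the floor in every genotype, as the liver label says, with a summed signal of 147638 in LT, 117053 in 17kT and 211403 in WT livers. All 9 had ratios below 0 in both comparisons with WT, with medians of -0.54 in LT and -0.72 in 17kT livers. Of them 2 passed 2-fold lower in LT and 3 in 17kT livers, beside 9.01% and 8.64% of all genes. T and NK cell markers (4 of 4) and bile duct markers (4 of 4) were at the floor in all genotypes. Neutrophil markers above the floor numbered 4 of 5 in LT, 3 of 5 in 17kT and 1 of 5 in WT livers, with a summed signal of 2460.1 in LT, 1909 in 17kT and 1048 in WT livers. Most of each sum was Lcn2, with 1858 in LT, 1542 in 17kT and 749 in WT livers. S100a8, S100a9, Mpo and Elane were at the floor in WT livers, so where they were measured against WT the filter fixed the direction. Elane read 114 in LT and 89.5 in WT livers, both near the floor. Of 3 erythroid markers only Alas2, an enzyme of heme synthesis, was above the floor, and it fell in both transgenic livers, with 124 in LT, 141 in 17kT and 1742 in WT livers (-3.81 and -3.63). All 6 measured stellate and matrix markers had ratios below 0 in LT livers, 1 of them past 2-fold, and 4 of 6 did in 17kT livers, 0 past 2-fold. Among these, Col1a1 and Des were measured only through the WT array, so for them the filter fixed the direction in both comparisons. Of 7 endothelial markers, 5 had ratios below 0 in each comparison, with 2 past 2-fold lower in LT livers, and 1 lower and 1 higher in 17kT livers. The summed endothelial signal was 2451 in LT, 3172 in 17kT and 3642 in WT livers, and the summed stellate signal was 3593 in LT, 5709.7 in 17kT and 5536 in WT livers. The ratio of 3′ to 5′ Gapdh probe sets, a sign of RNA length, was 3.08 and 3.16 in LT, 3.53 and 2.85 in 17kT and 5.81 and 6.04 in WT livers on the 2 designs. The Actb ratio was 2.52 and 2.50 in LT, 2.13 and 1.72 in 17kT and 2.57 and 2.29 in WT livers, so WT stood apart by Gapdh and not by Actb. The part of these markers and ratios in the member values was not tested. The LT arrays went through fluidics station 2, and the other 4 through station 1, so LT and station cannot be told apart.

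The size of the member shift depended on how arrays were put on a common scale. Over 6 scalings the member median ran between 0.39 and 1.09 in LT against WT, between 0.28 and 1.17 in 17kT against WT and between -0.07 and 0.32 in LT against 17kT. Relative to the median of all measured genes under the same scaling, the ranges were 0.54 to 0.70, 0.38 to 0.77 and 0.01 to 0.31. The counts moved with it: between 8 and 20 members passed in LT and between 3 and 22 in 17kT livers. The signals as deposited, counted among the 6 scalings, already had nearly the same trimmed mean, so they repeat the main scaling almost exactly. Of the 13 members called in LT livers, 8 were called under all 6 scalings: Rrn3, Noc2l, Nop56, Nop58, Tcof1, Gnl3, Nolc1 and Nhp2. Of the 4 called in 17kT livers, Rrn3, Nop56 and Nop58 were, and Tcof1 was called under 3. In LT against 17kT, Noc2l was and Dkc1 was called under 4. Over all alternative settings except the 3-fold rule, wherever the gene was measured, fewer calls were kept. They were 4 of 13 in LT against WT, 1 of 4 in 17kT against WT and 0 of 2 in LT against 17kT.

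**Figure D5:**
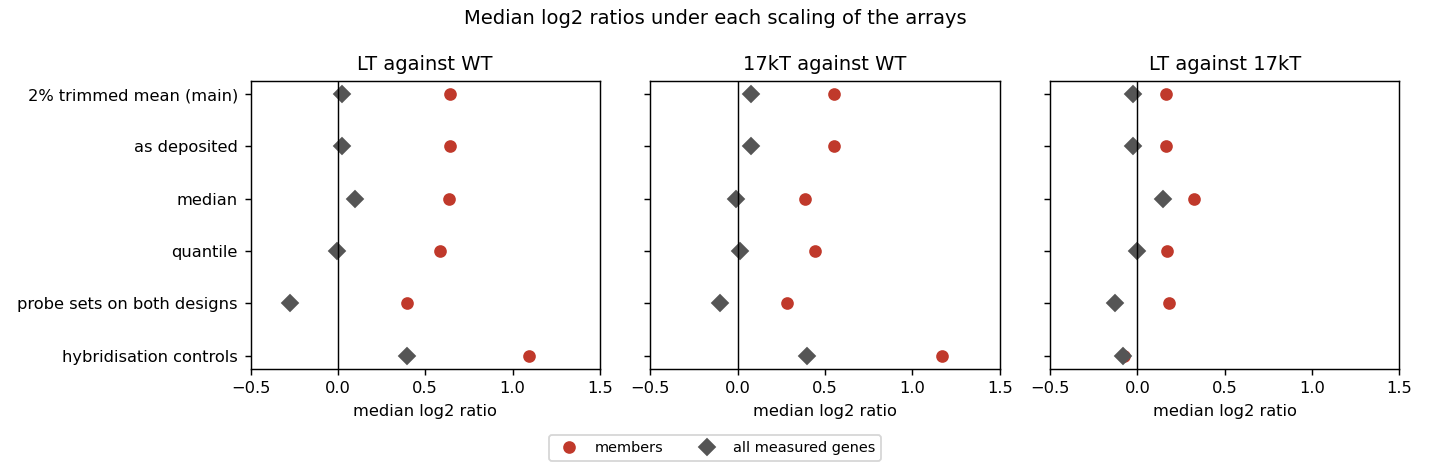
Median log2 ratio of the members (circles) and of all measured genes (diamonds) under 6 scalings of the arrays, in the 3 comparisons. Against WT the circles stay to the right of the diamonds under each scaling; in LT against 17kT they nearly coincide when arrays are scaled to the hybridisation controls, where the difference is 0.01.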

How the data were processed

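The authors deposited a linear intensity for each probe set of each array. Per the submitters' processing notes these intensities come from MAS5, with no version given in the sources used here, and their 2% trimmed mean of about 250.1 on each array shows a prior scaling. The 17kT arrays were written with more decimals than the others.

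Each array was scaled to a common 2% trimmed mean within its design, floored at the median signal and put on a log2 scale (Python 3.11.15, pandas 2.3.3, numpy 2.4.6). Gene symbols came from the platform annotation and were updated to RefSeq, GRCm38.p6. Of the probe sets, 20393 on 430A and 14674 on 430B had 1 symbol, 691 and 245 had several and were not used, and 1606 and 7656 had none. Probe sets ending in _x_at represented a gene only where no other did. The code was tested on simulated data. The members and all lists were chosen with earlier results of these data known. Of 165 pathway genes 159 were matched, and 3 of those by older symbols, and of 71 marker genes 61. Signals were given array by array for members past 2-fold against WT and for at least 1 of each role. From each pathway list, up to 2 of the highest and 2 of the lowest ratios against WT were named, provided both arrays read above the floor and no probe set opposed by 2-fold. With 1 array per group, no p-value was computed and no replicate was left out. Alternatives covered scaling, floor, pseudocount, size rule, choice of probe set and design.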

Additional observations from a re-analysis of the deposited data

How the results depend on the processing

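With 1 array per genotype and design, leaving out an array leaves no comparison, and array error was not measured. No paired analysis was possible because each group had 1 array, so the shared replicate number pairs nothing. Signals near the floor set bounds only. For 5 members the design of the array and the gene go together.

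In LT against WT the count of members higher, 13, was 8 when scaling to the probe sets on both designs, 20 with hybridisation controls, 6 with the floor at the 75th percentile, 7 with the floor as a pseudocount, 2 at 3-fold and 5 of 10 on 430B alone. Its median was 0.39 with the shared probe sets, 1.09 with hybridisation controls and 0.89 on 430B alone. In 17kT against WT the count higher, 4, was 22 with hybridisation controls, 2 with the higher floor, 2 with the pseudocount, 2 at 3-fold and 1 of 9 on 430B alone. The median was 1.17 with hybridisation controls and turned to -0.073 on 430B alone. The count lower, 0, was 1 (Nop14) under median scaling, quantile normalization and scaling to the shared probe sets. In LT against 17kT the count higher, 2, was 1 with the shared probe sets, at 3-fold and with the mean over probe sets, and 0 on 430A alone. The median turned to -0.074 with hybridisation controls and was 0.61 on 430B alone. On 430B fewer members are measured; otherwise the cause was not tested.

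Of all genes called in LT against WT, 55.2% were higher, against 26.9% with the shared probe sets and 81.2% with hybridisation controls. For 17kT against WT the shares were 53.6%, 38.7% and 79.7%, and for LT against 17kT 51.4%, 24.8% and 64.2%, with 73.3% under median scaling. The scalings moved the median of all genes in LT against WT to -0.27 with the shared probe sets and 0.40 with hybridisation controls. With the 3-fold rule left out, single called members kept direction in every value, with 24 of 143 values under 2-fold in LT against WT, 7 of 44 in 17kT against WT and 4 of 23 in LT against 17kT.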
